A study of Drosophila melanogaster with 38 samples.

Results

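OGA-null larvae of Drosophila melanogaster were set against wild-type (WT) larvae at 12, 16, 20 and 24 h of a chase, peak by peak, over all 1883 O-GlcNAc-seq peaks of 1883 in the series. The measure was the ratio of OGA-null to WT signal at each time. The comparison draws on 16 of the 38 libraries, 2 biological replicates for each genotype and time. OGA-null larvae carried a knockout of OGA in the Oregon R background, and WT larvae were wild type in the same background. Both genotypes hatched from eggs laid on food with the azide-bearing sugar Ac4GalNAz at 150 uM, fed on it for 36 h and were moved to food with only the solvent DMSO until collection. Age therefore rises with chase time in both genotypes. Many whole larvae were pooled for each library, so tissues are mixed, and fewer cells with label at a site cannot be told apart from less label per cell.

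O-GlcNAc is a single sugar on proteins of the nucleus and cytoplasm, attached at serine or threonine by the transferase OGT and taken off by the hydrolase OGA. On chromatin it sits on transcription factors, Polycomb proteins and the transcription machinery, and in flies OGT is the Polycomb group gene super sex combs. Ac4GalNAz is converted in cells to an azide-bearing donor that OGT can use, so proteins modified during feeding carry a chemical handle. In O-GlcNAc-seq this handle is joined to biotin by click chemistry, the fixed chromatin is pulled down on streptavidin, and its DNA is sequenced. Without fresh sugar the label can leave by removal, by turnover of the protein or by its departure from DNA, and the assay does not separate these.

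The deposited signal is a sum of coverage across each peak, given here per base, with 1 value per genotype and time that combines both replicates. The spread between replicates is therefore unknown, and the depth of the libraries is unknown too. Positions are those of the dm3 build, counted from 1. They carry no gene names or sequence, because they were matched to no annotation, the one given being of Release 6. Distances to OGA refer to a deposited list of 3534 intervals from OGA ChIP-seq, which gives no score and covers a WT and an OGA-null library in 1 list. Of the 8 columns used, WT at 24 h stood apart. Across peaks its signal per base had a Spearman's rho of 0.262 to 0.366 with the other columns, and among those other columns rho ran from 0.358 to 0.645. Values are therefore given for each time, and counts over all 4 times also without 24 h.

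In the deposited scale, the signal was higher in OGA-null than in WT larvae at nearly every peak from 12 to 24 h. How the columns were scaled is not stated, and every ratio set against 1 or 2, with the medians of the ratio, rests on that scaling. A factor common to a column would not alter comparisons of peaks within a time. At 12 h the median peak had a signal per base of 14.3 in OGA-null and 5.41 in WT larvae. At 16 h the medians were 11.7 in OGA-null and 4.54 in WT larvae. They were 6.95 in OGA-null and 2.68 in WT larvae at 20 h, and 2.79 in OGA-null and 1.02 in WT larvae at 24 h. The gap between genotypes thus stayed at about the same ratio, with medians from 2.54 to 2.76, while both levels fell. At 0 h, before the chase, the median ratio was 0.689. The ratio was above 1 at all 4 times for 1868 peaks (99.2% of peaks) and above 2 at all 4 times for 895 (47.5%). At 12 h 90.1% of peaks had a ratio above 2, and at 16, 20 and 24 h the shares were 80.1%, 80.5% and 80.7%. A ratio above 1 was met by 100% of peaks at 12 and 16 h, 99.8% at 20 h and 99.4% at 24 h, which leaves 3 peaks under 1 at 20 h and 12 at 24 h.

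What changed over these hours was the spread of the ratio between peaks. From the 5th to the 95th percentile it ran from 1.85 to 3.92 at 12 h and from 1.60 to 4.86 at 16 h. The same range was 1.56 to 4.91 at 20 h and 1.48 to 5.56 at 24 h. On the log2 scale the SD over peaks was 0.33, 0.49, 0.52 and 0.59 at 12, 16, 20 and 24 h. The signal per base falls over the same hours, and its part in the wider spread was not tested. Single peaks moved both ways between the first and the last of these times. The ratio was higher at 24 h than at 12 h for 1051 of 1883 peaks. It rose at each of the 3 steps for 87 peaks and fell at each step for 67.

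**Figure D1:**
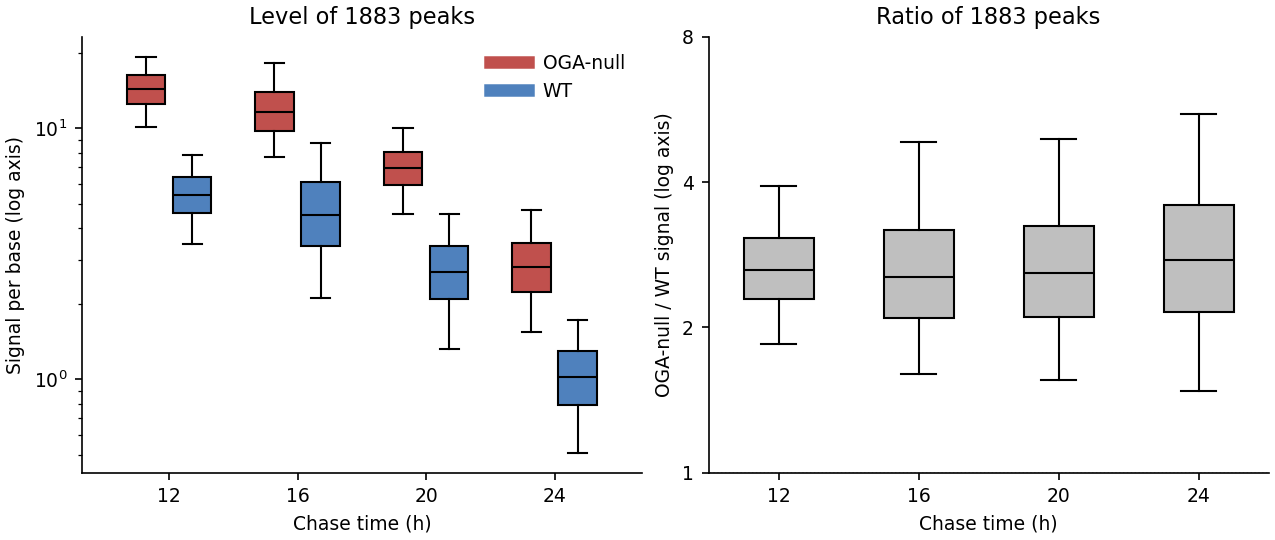
Left, signal per base (log axis) of 1883 peaks in OGA-null and WT larvae by chase time. Right, the ratio of OGA-null to WT signal (log axis). Boxes span the quartiles with the median as a line, and whiskers reach the 5th and 95th percentiles of peaks. The median ratio stays between 2.54 and 2.76 while the whiskers widen.

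Which peaks had a high or a low ratio differed from time to time. A relative log2 ratio, the log2 ratio of a peak minus the median of all peaks at that time, removes a factor common to a column. For the 12 and 16 h ratios rho across the 1883 peaks was 0.127, for 12 and 20 h it was 0.107, and for 16 and 20 h it was 0.147. With 24 h the relation ran the other way, at -0.0843 for 12 h, -0.112 for 16 h and -0.105 for 20 h. The mean of the 6 values was 0.0135. Ratios at different times share no library, but they share the peak's width and base composition, and peaks are not independent replicates. By width, the pairs among 12, 16 and 20 h had the highest values in the 295 peaks over 100 bp, from 0.194 to 0.275, and there too each pair with 24 h was below 0.

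The levels themselves were more alike than the ratio. Between 2 OGA-null columns the signal per base had a mean rho of 0.529 (SD 0.0737 over 6 pairs), and between 2 WT columns 0.393 (SD 0.111 over 6 pairs). Between OGA-null and WT columns the mean rho was 0.489 at the same time (SD 0.117 over 4 pairs) and 0.458 at different times (SD 0.115 over 12 pairs). A peak with much label in OGA-null larvae thus tended to have much in WT larvae as well. The ratio is what is left when this common level is divided out.

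**Figure D2:**
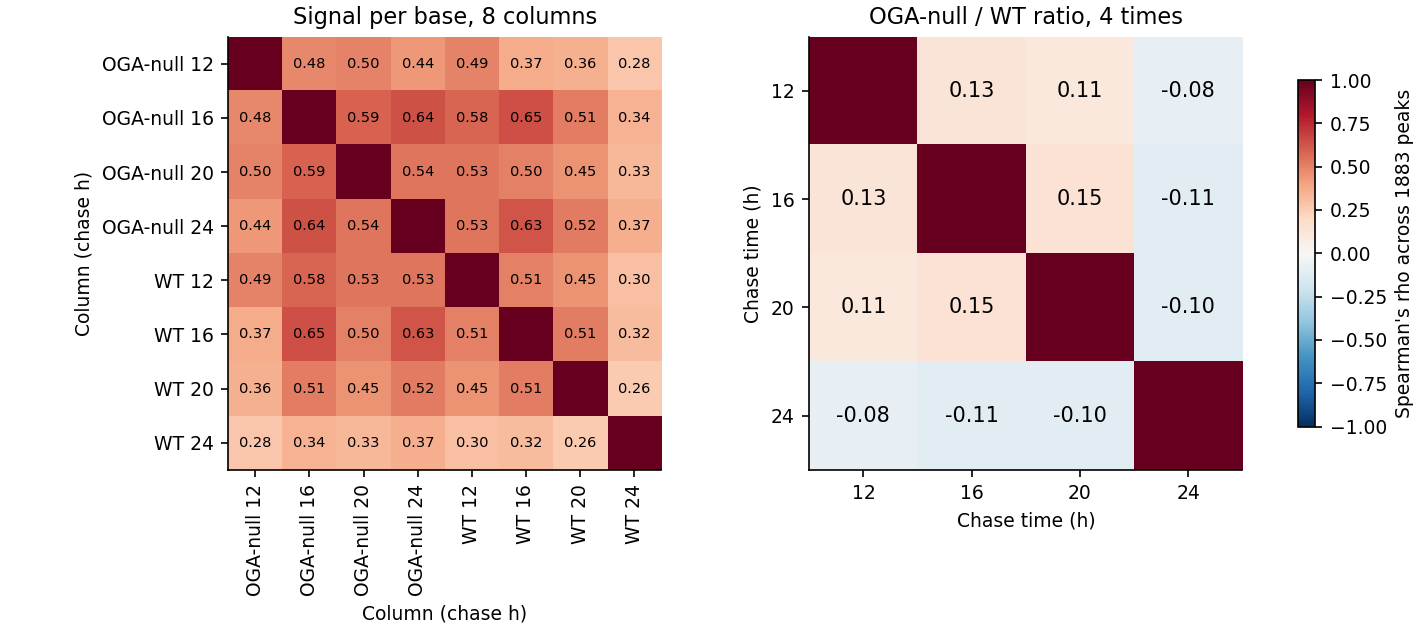
Spearman's rho across 1883 peaks, on a colour scale from -1 to 1. Left, signal per base in the 4 OGA-null and 4 WT columns. Right, the ratio of OGA-null to WT at the 4 chase times. Levels have rho from 0.262 to 0.645 in every pair of columns, and ratios from -0.112 to 0.147.

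Peaks were called high at a time when their ratio was in the top 25.0% of peaks, and low when it was in the bottom 25.0%. At all 4 times, 9 peaks were high (0.478% of 1883) and 5 were low (0.266%). Of the 471 peaks in the top 25% at 12 h, 32.5% were in the top 25% at 16 h, 31.8% at 20 h and 24.8% at 24 h, where 25.0% of all peaks are. Of the 470 in the bottom 25% at 12 h, 31.5% were in the bottom 25% at 16 h, 28.5% at 20 h and 20.4% at 24 h. At 24 h the shared part was thus at or below that of all peaks. When 3 times chose the peaks, the share again in the top 25% at the remaining time was 29.0% at 12 h, 31.0% at 16 h and 25.7% at 20 h, and the share again in the bottom 25% was 20.8%, 18.5% and 21.7%. It was lowest at 24 h. Of 58 peaks in the top 25% at 12, 16 and 20 h, 15.5% were in it at 24 h. Of 49 in the bottom 25% at those times, 10.2% were in the bottom 25% at 24 h. A ratio above the median of peaks at all 4 times was met by 119 peaks (6.32%), and one below it at all 4 times by 127 (6.74%). Ratios unrelated between times would also put some peaks in the same tail, or on the same side, at all 4 times. None of the counts over all 4 times was tested against that share, so they do not set these peaks apart.

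**Figure D3:**
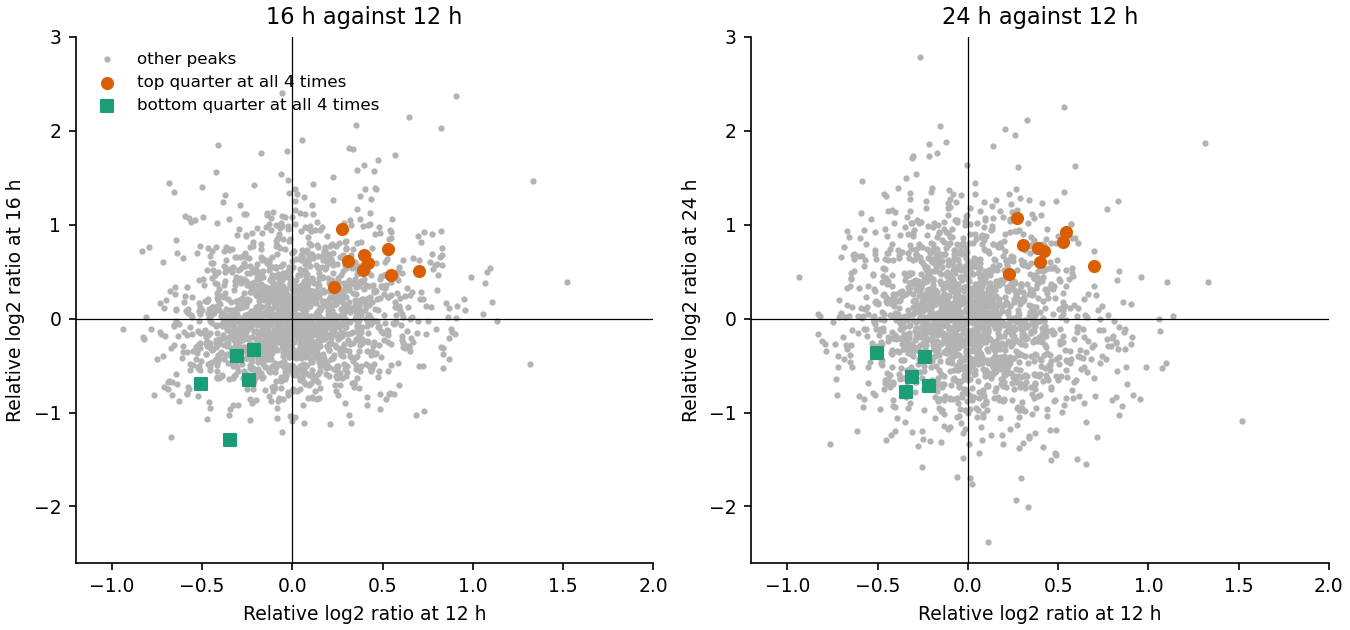
Relative log2 ratio of 1883 peaks at 16 h (left) and 24 h (right) against that at 12 h. Orange circles are the 9 peaks in the top 25% at all 4 times, green squares the 5 in the bottom 25% at all 4 times, and grey dots all other peaks. The cloud is nearly round in both panels, with rho of 0.127 on the left and -0.0843 on the right.

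Of the 9 high peaks, 3 were on 2L, 2 on 3R, 2 on X and 1 each on 2R and 3L. Of all 1883 peaks, 373 are on 2L, 482 on 3R, 141 on X, 397 on 2R and 408 on 3L. Among the 9, the peak with the highest mean relative ratio lay on 2L at 19125834 to 19125857 (24 bp). Its signal per base was 12.6, 10.2, 7.17 and 2.34 in OGA-null larvae at 12, 16, 20 and 24 h, against 3.66, 2.82, 0.981 and 0.501 in WT larvae. The ratio was 3.44, 3.63, 7.30 and 4.67 at 12, 16, 20 and 24 h, so that the 20 h value stands out. The mean relative log2 ratio was 0.79 with an SD of 0.49 over the 4 times.

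The next was a peak of 51 bp on 3R at 26650093 to 26650143 that overlapped an interval of the OGA ChIP-seq list. It had 14.2, 7.77, 7.0 and 2.49 per base in OGA-null larvae at the 4 times, against 4.47, 1.58, 1.70 and 0.430 in WT larvae. Its ratio was lowest at 12 h, with 3.17, and highest at 24 h, with 5.80. A peak of 31 bp on 2L at 11987084 to 11987114 had 16.0, 11.4, 9.19 and 3.04 per base in OGA-null larvae and 3.75, 3.15, 1.64 and 0.748 in WT larvae. Its ratio was between 3.61 and 5.60. Another peak was within 659 bp of it, close enough for both to share DNA fragments.

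On 2L, the peak of 20 bp at 8920200 to 8920219 lay 4 bp from an OGA interval. Its OGA-null signal per base was 16.9, 12.0, 8.29 and 2.09, and its WT signal per base was 4.47, 2.83, 2.28 and 0.431. Here the relative log2 ratio varied least among the 5 highest, with an SD of 0.16 over the 4 times around a mean of 0.64. The peak of 20 bp on 3R at 5241487 to 5241506 also overlapped an OGA interval. It had 17.0, 9.42, 7.25 and 2.12 per base in OGA-null larvae, against 4.91, 2.31, 1.57 and 0.505 in WT larvae. The other 4 high peaks had ratios from 3.08 to 5.23. The values at these peaks chose them, so they are a description, and no peak over 100 bp was among the high or the low ones.

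In all 9 high peaks the WT level was below the median of peaks at each of the 4 times. The median of the 9 was 1.05, 0.877, 1.04 and 0.837 times the median peak in OGA-null larvae at 12, 16, 20 and 24 h, against 0.826, 0.624, 0.636 and 0.490 times the median peak in WT larvae. The ratio chose these peaks, and WT levels vary more over peaks than OGA-null levels (log2 SD of 0.39 in OGA-null and 0.64 in WT larvae at 16 h), so these levels only describe them. OGA intervals overlapped 2 of the 9 and lay within 1 kb of 5, compared with 81 and 492 of all 1883 peaks.

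The 5 low peaks were on 2L (2), 2R (2) and X (1), which hold 373, 397 and 141 of all 1883 peaks. The lowest of the 5 lay on 2L at 22854156 to 22854180 (25 bp). It had 14.5, 11.3, 5.33 and 2.74 per base in OGA-null larvae at the 4 times and 7.86, 7.19, 5.14 and 1.28 in WT larvae. At 20 h the genotypes were nearly level, with a ratio of 1.04, and at the other times it was 1.57 to 2.14. The next, on 2L at 8780143 to 8780162 (20 bp), had 13.1, 3.64, 4.94 and 1.50 in OGA-null larvae, against 6.31, 3.51, 2.37 and 0.932 in WT larvae. There the OGA-null level dropped most at 16 h, where the ratio was 1.04.

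The peak of 44 bp on 2R at 19889350 to 19889393 had ratios from 1.46 to 2.27. On X, the peak of 40 bp at 1251016 to 1251055 had 11.2, 6.67, 4.59 and 2.20 per base in OGA-null larvae and 5.04, 4.13, 2.51 and 1.06 in WT larvae. The widest of the low peaks, 77 bp on 2R at 8567005 to 8567081, had 15.0, 13.7, 7.45 and 2.72 per base in OGA-null larvae, against 7.06, 7.15, 3.74 and 1.51 in WT larvae. Its ratio, 2.12, 1.92, 1.99 and 1.80, was steady, with an SD of 0.13 for the relative log2 ratio. The median of the 5 was 0.912, 0.778, 0.711 and 0.788 times the median peak in OGA-null larvae, against 1.17, 0.994, 1.02 and 1.10 times in WT larvae. The 5 differed in this: the peaks at 22854156 on 2L and 8567005 on 2R lay above the median in WT larvae at each time, at 1.25 to 1.92 times it, and within 0.767 to 1.18 times it in OGA-null larvae. The other 3 were below the median in OGA-null larvae at each time. None of the 5 overlapped an OGA interval or had one within 1 kb, compared with 81 and 492 of all 1883 peaks. So few peaks cannot show a difference in this from the high ones or from all peaks.

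**Figure D4:**
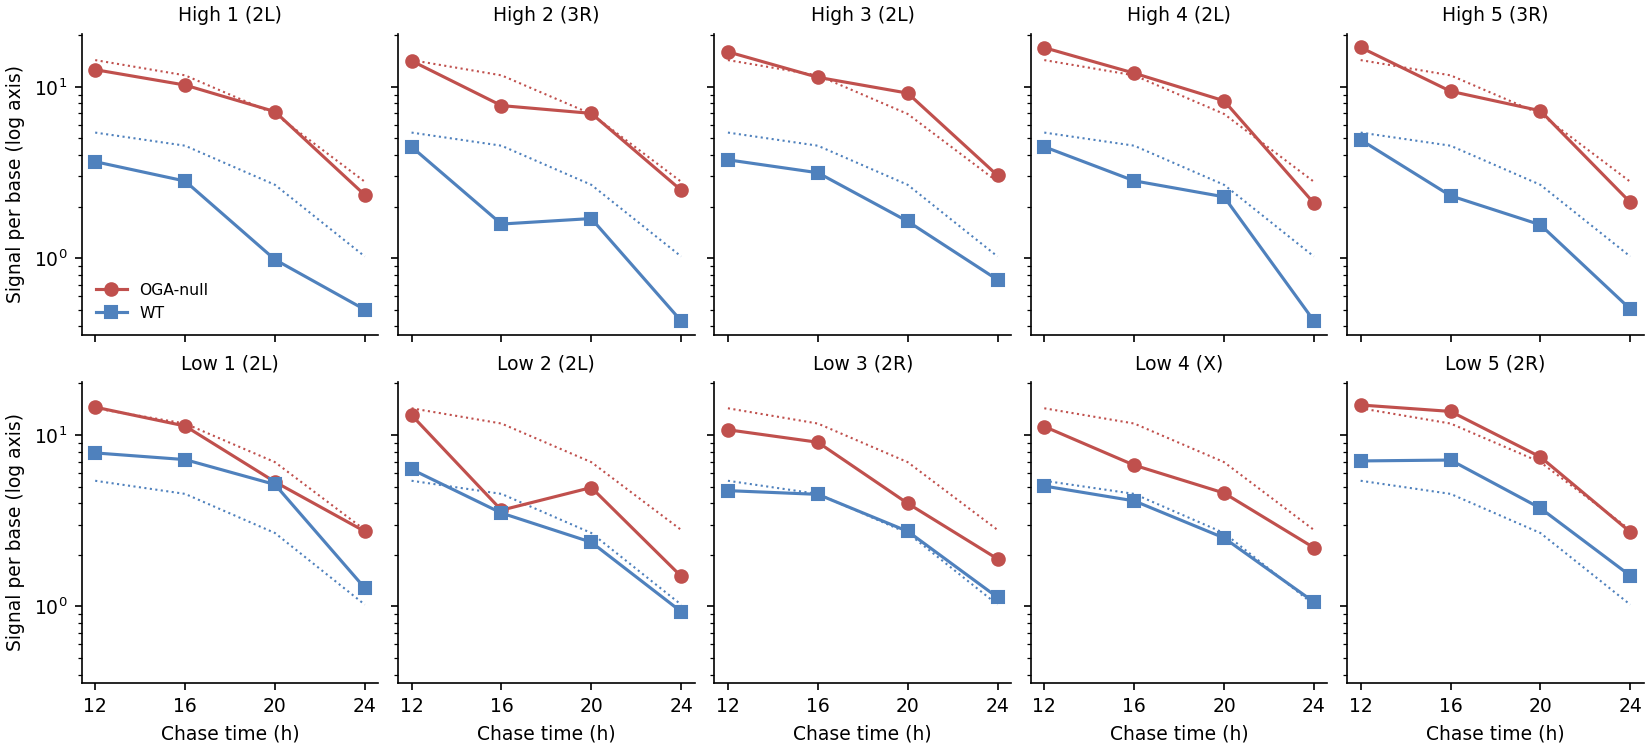
Signal per base (log axis) against chase time for the 5 highest of the peaks high at all 4 times (top row) and the 5 peaks low at all 4 times (bottom row), in the order of the text, with the chromosome in each title. Circles are OGA-null and squares WT larvae, 1 combined value each, and dotted lines are the median of 1883 peaks. In the top row the WT values lie below the dotted WT line at every time.

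The thresholds cut through a continuous range. Just inside the high group, the peak on 2R at 7467190 to 7467232 was at the 75.3rd percentile or above at each time. Just outside, the peak on 2R at 14693837 to 14693872 reached the 74.9th percentile at 12 h. Its mean relative log2 ratio was 0.51, equal to that of the peak just inside. Just inside the low group was the lowest peak on 2L, at the 24.8th percentile at 24 h. Just outside was a peak on 3R at 19873084 to 19873103, at the 25.2nd percentile at 12 h.

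A high mean over the 4 times did not need a high ratio at each. The highest mean on X belonged to the peak at 14844768 to 14844798. Its ratio was 2.13, 2.81, 12.6 and 9.14 at 12, 16, 20 and 24 h, and its WT signal per base was 0.520 at 20 h and 0.216 at 24 h. The lowest mean on X, at 19848296 to 19848327, had ratios of 2.01, 1.67, 1.05 and 2.78. On heterochromatin sequence 2RHet, the peak at 102104 to 102123 had the highest mean of that kind, with ratios of 2.84, 5.50, 6.71 and 2.02. The lowest there, at 3134538 to 3134563, had 2.05, 2.42, 0.852 and 2.22. Among peaks that overlap OGA, the lowest means were those on 2R at 14197232 to 14197251, with ratios of 1.67, 2.40, 1.33 and 2.00, and on 3R at 8244872 to 8244910, with 2.36, 1.98, 2.10 and 2.11. Over the 4 times the relative log2 ratios of these extremes had SDs from 0.10, at the peak on 3R, to 1.24, at the higher peak on X.

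Whether a choice at some times carries to others was read in libraries that did not make the choice. The 153 peaks in the top 25% at both 12 and 16 h had a median relative log2 ratio of 0.16 at 20 h, with 94 of them above the median of peaks, and of -0.16 at 24 h, with 65 above. The 148 in the bottom 25% at both had -0.13 at 20 h, with 59 above the median of peaks, and 0.073 at 24 h, with 93 above. The choice carried to 20 h by a factor of about 1.12 and turned at 24 h. In the other direction, the 104 peaks high at 20 and 24 h had 0.055 at 12 h and 0.081 at 16 h. The 111 low at 20 and 24 h had 0.0052 at 12 h and 0.10 at 16 h, so that both groups were on the same side of the median.

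At 20 h the carried difference in ratio followed the WT levels, which vary more over peaks (log2 SD of 0.57 against 0.35 in OGA-null larvae). OGA-null levels were also lower in the high group than in the low one, which makes the difference in ratio smaller. WT levels also varied more at 12 and 16 h, whose ratios chose the peaks, so these levels only describe the groups. Peaks high at 12 and 16 h were 0.13 below the median peak on the log2 scale in OGA-null larvae at 20 h (-0.13) and 0.33 below it in WT larvae (-0.33). Peaks low at 12 and 16 h were 0.099 above the median peak in OGA-null larvae and 0.31 above it in WT larvae. At 24 h the high group was at -0.33 in OGA-null and -0.22 in WT larvae, and the low group at 0.21 in OGA-null and 0.012 in WT larvae. In OGA-null larvae the groups thus kept their order at both times, and in the WT 24 h column the low group was near the median.

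Wide and narrow peaks differed more in the spread of the ratio than in its median. The SD over peaks of the log2 ratio at 12 h was 0.24 in peaks over 100 bp and 0.38 in peaks of 20 bp, and at 24 h it was 0.42 in wide and 0.63 in 20 bp peaks. The top 25% held 19.7%, 16.9%, 18.6% and 23.7% of the wide peaks at the 4 times, against 29.5%, 28.9%, 27.0% and 24.3% of the 20 bp peaks. The bottom 25% held 18.0%, 20.0%, 13.9% and 15.3% of the wide peaks and 28.6%, 27.1%, 31.2% and 30.5% of the 20 bp peaks. Wide peaks were thus rarer in both tails at 12, 16 and 20 h, and at 24 h nearly as frequent as 20 bp peaks in the upper one. The median ratio of the 295 wide peaks was 2.62, 2.50, 2.66 and 2.92 at the 4 times, and that of the 679 peaks of 20 bp was 2.64, 2.58, 2.55 and 2.61. The log2 difference, wide minus 20 bp, was -0.0091, -0.047, 0.059 and 0.16. It had no common sign over the times (p = 0.5, adjusted p = 0.625, exact two-sided sign-flip permutation over 4 times). Across peaks, rho of the ratio with width was -0.0220, -0.0261, 0.0674 and 0.0975.

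The WT 0 h signal per base, the level before the chase, had a relation that turned at 24 h. The lowest 25% of peaks by this level, up to 30.2 per base, had median ratios of 2.75, 2.70, 2.64 and 2.56 at 12, 16, 20 and 24 h. The highest 25%, from 36.4 per base, had 2.58, 2.47, 2.54 and 2.97. Peaks with much label at the start thus had the lower ratio at 12, 16 and 20 h and the higher one at 24 h. On the log2 scale the difference, highest minus lowest, was -0.097, -0.13, -0.052 and 0.21 (p = 0.875 by the exact sign-flip permutation over 4 times, adjusted p = 0.875). At 24 h the highest 25% had 3.55 per base in OGA-null and 1.20 in WT larvae, and the lowest 25% 2.36 in OGA-null and 0.931 in WT larvae. Width and WT 0 h signal per base go together (rho of 0.489 across peaks), so these are not independent measures.

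On the sequences of assembled heterochromatin, named Het in dm3, the ratio was lower than elsewhere at each time. The 81 Het peaks had median ratios of 2.47, 2.42, 2.26 and 2.69, against 2.64, 2.54, 2.60 and 2.77 in the other 1802 peaks. In log2 terms the difference was -0.097, -0.074, -0.20 and -0.042, a mean of -0.10 with an SD of 0.070 over the 4 times. Het peaks had more label than the rest in both genotypes, with 15.1, 14.0, 7.77 and 3.61 per base in OGA-null larvae and 5.87, 6.08, 3.30 and 1.24 in WT larvae. The other peaks had 14.3, 11.6, 6.92 and 2.77 per base in OGA-null larvae and 5.39, 4.48, 2.65 and 1.02 in WT larvae. At 12, 16 and 20 h the excess was larger in WT than in OGA-null larvae, and at 24 h it was smaller when read as medians of the level.

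Few Het peaks reached the top 25% at 12, 16 and 20 h. It held 9.88%, 12.3%, 13.6% and 23.5% of the 81 at the 4 times, where 25.0% of all peaks are. The bottom 25% held 24, 26, 28 and 17 of them, so that at 24 h both shares were near those of all peaks. Het peaks were narrow, with a median width of 20 bp against 37 bp. Within width classes the log2 difference was -0.098, -0.068, -0.18 and -0.0043, the last close to 0. The 21 peaks on 3LHet had the lowest 20 h ratio among sequences with at least 20 peaks, 2.09, and their ratio was 2.81 at 24 h. Reads of repeats can map to many places, and their treatment is not stated in the labels or headers.

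On the X chromosome the ratio was higher than on the autosomal arms 2L, 2R, 3L and 3R at 12, 16 and 20 h. The 141 X peaks had median ratios of 2.76, 2.76, 2.86 and 2.77, against 2.63, 2.52, 2.58 and 2.77 in the 1660 peaks of the arms. The log2 difference was 0.069, 0.13, 0.15 and 0.00047, and was thus close to 0 at 24 h. X peaks had less label than the arms in WT larvae at each time, from -0.065 to -0.14 on the log2 scale. In OGA-null larvae the difference was 0.0066 at 12 h and between -0.046 and -0.096 at the later times. With differences taken within width classes the 24 h value was -0.043. Among the 4 arms the medians ran from 2.57 on 2R to 2.66 on 3L at 12 h. At 16 h they ran from 2.47 on 2R to 2.55 on 3R, and at 20 h from 2.54 on 2R to 2.62 on 3L. At 24 h they ran from 2.69 on 3L to 2.87 on 2R, a range wider than the X difference there. The X median was thus above that of each arm at 12, 16 and 20 h and within their range at 24 h.

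Peaks that overlap an OGA interval had a slightly higher ratio than the rest at all 4 times. The 81 such peaks had medians of 2.73, 2.67, 2.67 and 3.02, against 2.62, 2.53, 2.58 and 2.75 in the 1802 others. The log2 difference was 0.060, 0.076, 0.051 and 0.13, with a mean of 0.080 and an SD of 0.036 over the 4 times. In OGA-null larvae these peaks had 0.081, 0.050, 0.12 and 0.069 more label on the log2 scale than the rest, and in WT larvae -0.013, 0.0039, -0.0076 and -0.066. The difference in level was thus above 0 at all 4 times in OGA-null larvae and near or below 0 in WT larvae. These levels were not matched for width. Overlapping peaks are wider, and peaks over 100 bp had more label per base than 20 bp peaks in both genotypes. The top 25% held 27.2%, 30.9%, 27.2% and 35.8% of the 81 at the 4 times, beside 25.0% of all peaks, and the bottom 25% held 14.8%, 19.8%, 18.5% and 17.3%. With the 0 h log2 ratio of each peak subtracted, the mean difference was 0.040 with an SD of 0.045, and it no longer had 1 sign at all times. These 4 values share the 0 h columns, so the sign-flip test over times does not apply to them.

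Peaks near an OGA interval without overlap were not higher at every time. The 411 peaks with an OGA interval within 1 kb but no overlap had median ratios of 2.63, 2.56, 2.64 and 2.51. Those at 1 to 10 kb had 2.59, 2.55, 2.55 and 2.77, and those beyond 10 kb had 2.65, 2.48, 2.60 and 2.88. Across peaks, rho of the ratio with this distance was 0.0054, -0.062, -0.031 and 0.0998 at the 4 times. With all peaks within 1 kb, overlapping ones included, in place of the overlapping ones, the mean log2 difference from the rest was -0.0058. OGA-overlapping peaks are wider, with a median of 67 bp against 34 bp. Within width classes the difference remained, at 0.064, 0.082, 0.076 and 0.13.

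With 4 times no difference could pass a threshold of 0.05: the exact two-sided sign-flip test, which exchanges the genotypes within a time, cannot go below 0.125. The Het, X and OGA-overlap differences each had this smallest p (p = 0.125, adjusted p = 0.208 over 5 contrasts by Benjamini-Hochberg, exact permutation). Each kept 1 sign at all 4 times, X with a value of only 0.00047 at 24 h. At the other chase times the Het difference was 0.0033, 0.0396, -0.046 and -0.35 at 0, 4, 8 and 36 h. The X difference was -0.035, 0.018, 0.0038 and 0.25, and that of OGA overlap 0.032, -0.0098, 0.0066 and -0.092. At 0, 4 and 8 h all of these were thus under 0.05 in size. The 36 h differences rest on the 1848 peaks with WT signal above 0 at that time. Width, WT 0 h signal, distance and overlap with OGA, Het and X together accounted for 2.03%, 2.24%, 1.40% and 3.43% of the variance of the log2 ratio over peaks at 12, 16, 20 and 24 h.

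**Figure D5:**
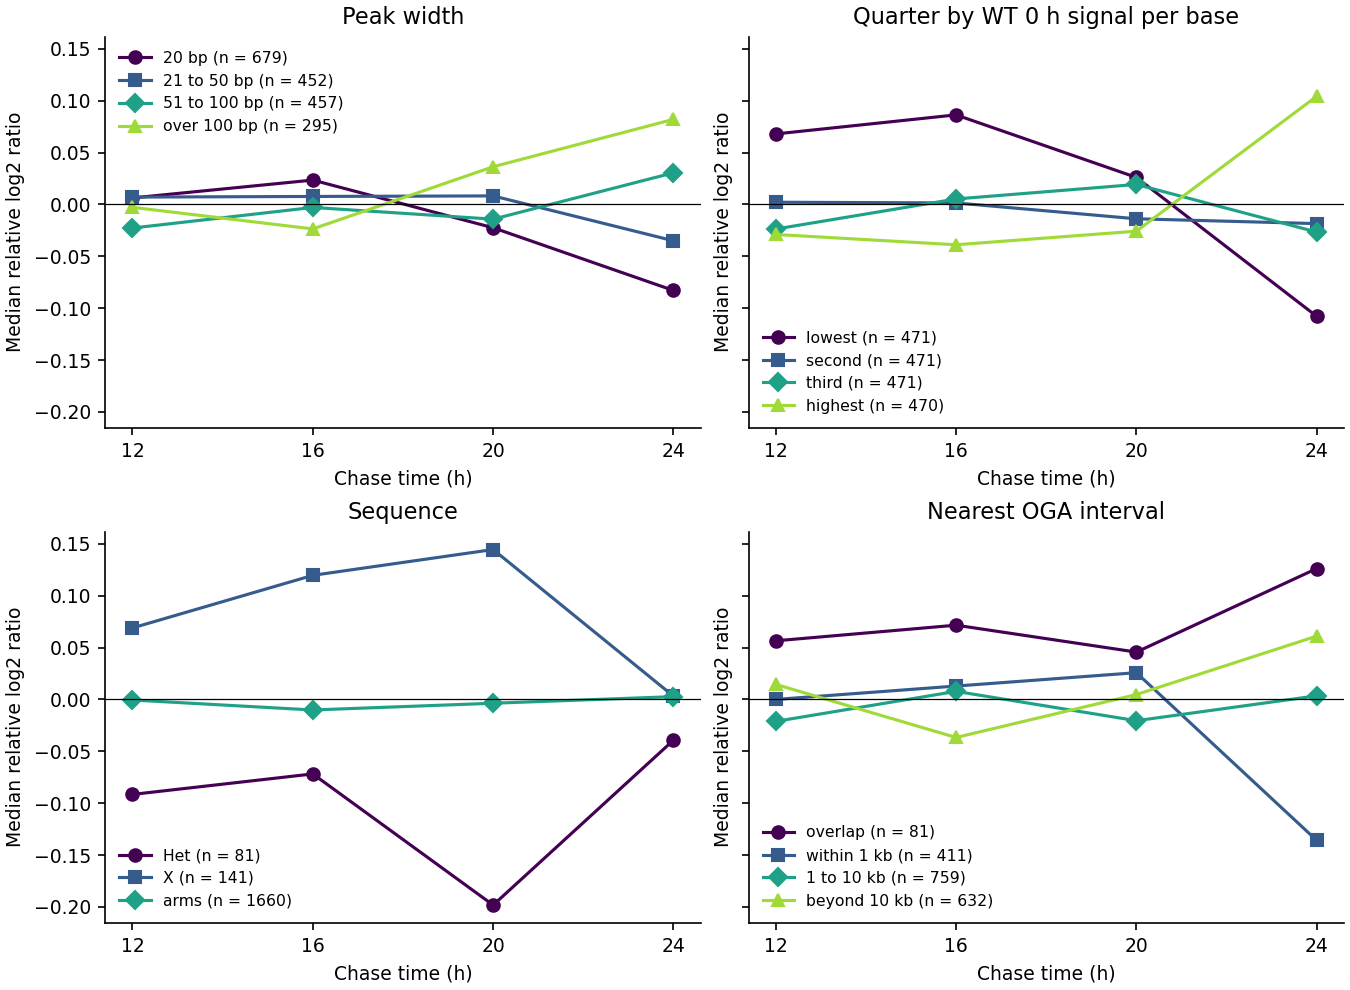
Median relative log2 ratio (0 is the median of all 1883 peaks at that time) against chase time, for classes of peaks by width, WT 0 h signal per base, sequence and distance to the nearest OGA interval. Each point is a median over the peaks in the legend. The Het line lies below 0 and the OGA-overlap line above 0 at all 4 times, while the extreme width and WT 0 h classes cross.

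Close neighbours had somewhat similar ratios at the same time and not between 12 or 16 h and 20 or 24 h. For 548 peaks with another peak within 700 bp, the upper end of the sheared fragment sizes, rho with the nearest neighbour at the same time was 0.103, 0.267, 0.163 and 0.161 at 12, 16, 20 and 24 h. Such neighbours can share DNA fragments. With the peak read at 12 or 16 h and the neighbour at 20 or 24 h, so that no library is shared, the mean rho was -0.0624. Over those pairs of times the ratio of a peak with itself had rho from only -0.112 to 0.147. The values at different times therefore say little about neighbours. For the 685 peaks with the nearest neighbour between 700 bp and 10 kb away, the mean was 0.0131 at the same time and 0.0193 at different times. Beyond 10 kb it was -0.0031 at the same time and 0.0018 at different times.

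The ratio was also read in sums over larger stretches. This summary was chosen after the single-peak values were seen. In 109 windows of 100 kb with at least 5 peaks, holding 919 peaks, rho of the summed ratio was 0.443 for 12 and 16 h, 0.411 for 12 and 20 h and 0.272 for 16 and 20 h. With 24 h it was -0.123, -0.222 and -0.107. On the 4 autosomal arms alone the first 3 values were 0.452, 0.407 and 0.261, with Het and X windows left out. In windows of 1 Mb over all sequences they were 0.339, 0.288 and 0.265, and those with 24 h were from 0.0445 to 0.190. On the arms alone the 1 Mb values were 0.290, 0.203 and 0.253, and those with 24 h were from -0.0121 to 0.169. The 919 single peaks of the 100 kb windows had rho of 0.158, 0.118 and 0.147 for the same 3 pairs of times. Single peaks over 100 bp, in or outside these windows, had 0.194, 0.275 and 0.197, each below the value of that pair for 100 kb sums.

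Single windows were named after their values were seen. Of the 109, 3 were in the top 25% at all 4 times. On 3R from 11000001 to 11100000, 10 peaks had summed ratios of 2.79, 3.73, 3.22 and 3.31. On 2R from 4800001 to 4900000, 6 peaks had 3.07, 3.17, 2.93 and 3.42. On 3L from 9300001 to 9400000, 5 peaks had 3.07, 2.84, 3.44 and 3.01. The window in the bottom 25% at all 4 times was on 2R from 8400001 to 8500000, where 5 peaks had 2.37, 2.24, 2.21 and 2.27. Windows ranged from 2.03 to 3.28 at 12 h and from 1.80 to 4.11 at 24 h, a narrower range than that of single peaks.

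The ratio at earlier and later times had a weak relation to that from 12 to 24 h. Across peaks, the mean relative ratio of the 4 times had rho of -0.0091, -0.0242, 0.108 and 0.0022 with the ratio at 0, 4, 8 and 36 h. Without 24 h the mean had rho of 0.0551 with 4 h, 0.167 with 8 h and -0.139 with 36 h. By single times, the 8 h ratio had rho of 0.110, 0.127 and 0.0841 with those at 12, 16 and 20 h, near the values among these times. The 24 h ratio had its highest rho with that at 36 h, 0.21, where the 12, 16 and 20 h ratios had -0.11, -0.12 and -0.05. The 24 and 36 h ratios rest on the 2 WT columns with the least signal. At 36 h only the 1848 peaks with WT signal above 0 have a ratio and enter these values. Above the median ratio at 0, 4, 8 and 36 h were 4, 6, 5 and 4 of the 9 high peaks, and 2, 2, 3 and 3 of the 5 low peaks.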

How the data were processed

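Per the labels' protocols, fixed larval chromatin was sonicated, labelled material was purified on streptavidin after a click reaction, and its DNA was sequenced. The authors deposited signal, which is coverage summed over the bases of each peak, in 16 columns that each combine biological replicates 1 and 2. The scaling, aligner, peak caller and thresholds are not given in those sources. Named in the submitters' processing notes, with no roles, are the builds dm3 and sacCer3 and the tools bedtools 2.17.0 and SAMtools. The deposited OGA list gives interval positions only.

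Signal was divided by peak width, and the OGA-null value was divided by the WT value of the same time, with no pseudocount, since none of these values was 0. Top and bottom 25% shares, medians and Spearman's rho over peaks are descriptions, and classes of peaks were compared over the 4 times by an exact two-sided sign-flip permutation test with Benjamini-Hochberg adjustment over 5 contrasts. OGA overlap means at least 1 bp. Computation used Python 3.11.15 with numpy 2.4.6, scipy 1.17.1, pandas 2.3.3 and matplotlib 3.10.9, and the procedure was tested on simulated data.

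Named peaks are the 5 highest and 5 lowest by mean relative log2 ratio among those high or low at all 4 times, the 3 at each end over 100 bp wide among them (there were none), the 2 at each end that overlap OGA, the extremes on Het and X, and those beside each threshold. The members, classes and rules were chosen with earlier results of these data known. Alternatives changed the pseudocount, the filter on low signal, the peaks and times used, the threshold, the baseline and the measure. Because each column combines 2 libraries, the spread between replicates and the depth could not be used, and p-values reflect only the spread between times.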

Additional observations from a re-analysis of the deposited data

Results flagged for a closer look

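Both class differences below changed sign between chase times, and neither difference between times was tested. The log2 difference in ratio between peaks over 100 bp and peaks of 20 bp was 0.17 higher at 24 h than at 12 h, at 0.16 and -0.0091. The log2 difference between the highest and the lowest 25% of peaks by WT 0 h signal per base was 0.31 higher at 24 h than at 12 h, at 0.21 and -0.097. The WT 24 h column, which had the lowest rho with the other columns, enters both, and its part was not tested.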

How the results depend on the processing

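Of 243 values under alternative settings, 29 changed sign and 107 more moved by over 1.5 times. By the spread over times or pairs of times, by 1.5 times for counts of peaks, or by sign for class differences, 26 departed and 5 more reversed, and these are listed here. The mean rho between times ran from -0.027 to 0.376, the high minus low difference read at 20 and 24 h, 0.027 as reported, from -0.23 without 20 h to 0.28 without 24 h, rho with WT 0 h signal from -0.075 to 0.061, and rho with the 36 h ratio from -0.14 to 0.23. The Het difference ran from -0.14 to -0.071 and the X difference from 0.063 to 0.12 in 11 settings each. The OGA-overlap difference ran from -0.0058, with all peaks within 1 kb in place of overlap, to 0.10, and was 0.040 with the 0 h ratio subtracted. The difference by WT 0 h signal, -0.015 as reported, was 0.084 with a pseudocount of 10, 0.0047 without the 25% of lowest mean signal, 0.012 without 12 h and 0.021 without 16 h. The peaks high and low at all times used were 28 and 20 with tails of 1 in 3 peaks, 0 and 0 with tails of 1 in 10, 31 and 24 without 12 h, 29 and 27 without 16 h, 35 and 23 without 20 h, and 58 and 49 without 24 h. With a cut of 1.2-fold 16 were high, and with a pseudocount of 10 there were 8 low. That pseudocount also gave a mean rho with width of 0.170, a log2 median ratio of 1.29, and rho of -0.106 with the 0 h and 0.231 with the 36 h ratio. Subtracting the 0 h ratio gave a mean rho with width of 0.112. The high minus low difference read at 12 and 16 h, 0.014 as reported, was 0.092 without the 25% of lowest mean signal, 0.12 without 20 bp peaks, 0.067 with 1 peak per cluster, -0.12 without 20 h and 0.13 without 24 h. Without 24 h, the Spearman correlation across peaks with the 4 h ratio was 0.0551. Sums over 100 kb without 24 h, added after seeing the data, gave a mean rho between times of 0.376, against 0.127 for single peaks without 24 h; with 24 h the means were 0.112 for the sums and 0.0135 for single peaks. Apart from the settings that use fewer times or another threshold, the cause was not tested. Subtracting the 0 h ratio was not run for counts, agreement, held-out times, the WT 0 h level, neighbours, the median ratio or the relation to other chase times. Where it was run, all 4 times share the 0 h columns. Settings that empty a class were not run. No paired analysis was possible because each column combines both replicates, which also means that no replicate could be left out. Of 147 values for named peaks none changed sign and 14 moved by over 1.5 times. The same values chose these peaks, so a kept sign is no check on them. For peaks high or low at all 4 times, leaving out a time cannot change the sign. Without 20 h, the mean relative log2 ratio was 0.26 at 102104 and -0.25 at 3134538 on 2RHet, against 0.54 and -0.59 as reported, and 0.52 at 14844768 on X, against 0.96.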

Other observations

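In windows of 100 kb the 8 h ratio had rho of 0.242 with the 12 h, 0.323 with the 16 h and 0.246 with the 20 h ratio over 109 windows, and -0.146 with the 24 h ratio. The 24 h ratio instead had 0.332 with the 36 h ratio, and 0.348 over the 101 windows of the autosomal arms. In windows of 1 Mb the 36 h ratio had rho of 0.374 with the 24 h ratio and 0.271 with the 20 h ratio over 100 windows. Over the 83 windows of the autosomal arms these values were 0.377 and 0.140. Windows were chosen after seeing the data, and these values are descriptions.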
